A study of Homo sapiens with 2 samples.

Results

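The regions described here are the H3K18la peaks of H1299 cells that lie far from every protein-coding gene. H1299 is an established human line of non-small cell lung cancer that lacks p53. A peak was called distal if it lay on chromosomes 1 to 22, overlapped no protein-coding gene and was more than 50000 bp from the nearest start or end of one, by RefSeq genes of GRCh38. This held for 3042 of 27916 peaks on these chromosomes (10.9%, exact 95% binomial interval 10.5 to 11.3) and of 28695 listed peaks in all. The study holds 1 library of formaldehyde-crosslinked chromatin immunoprecipitated with an antibody to histone H3 lactylated at lysine 18 and 1 input library. The H3K18la peak list alone was analysed here, the cells were of 1 line with no treatment named, and there was no replicate. No p-value is therefore given, and the intervals cover counting error over peaks only. Read depth is unknown.

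Histone lactylation uses lactate, the end product of glycolysis, and H3K18la has been described at active promoters and enhancers. Enhancers are stretches of regulatory DNA that act on genes from a distance, and several close together on the genome often lie beside genes of growth and lineage control. Long noncoding RNA (lncRNA) genes and microRNA (miRNA) genes also lie in such gene-poor stretches, with promoters of their own.

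Sequence was read only where a distal peak overlaps the start of a lncRNA, and the sequence of the other distal peaks was not analysed here. RefSeq promoter windows of GRCh38.p14, from 250 bp before to 50 bp after a gene's start, were compared with the peaks. A window was called distal if it lay more than 50000 bp from any coding gene, wherever the rest of its gene lies. Shown first are the 3 windows with at least 20 CpG dinucleotides and the highest fold enrichment of their peak, one window a peak. After them come the 4 CpG-poorer windows of highest fold that hold the AP-1 motif, the site bound by Fos and Jun family factors. Sequences run 5′ to 3′ on the gene's strand, and capitals mark GGGCGG (GC box), TGANTCA (AP-1) or TGACGTCA (CRE) on either strand.
MIRLET7A1HG, chr9:94166008-94166307, plus strand: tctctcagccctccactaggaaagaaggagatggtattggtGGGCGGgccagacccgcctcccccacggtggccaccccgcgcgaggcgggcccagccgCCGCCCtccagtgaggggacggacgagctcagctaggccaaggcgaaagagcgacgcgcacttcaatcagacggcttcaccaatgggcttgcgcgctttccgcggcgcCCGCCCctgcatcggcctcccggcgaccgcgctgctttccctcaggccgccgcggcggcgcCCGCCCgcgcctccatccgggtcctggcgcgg
DLEU2, chr13:50125492-50125791, minus strand: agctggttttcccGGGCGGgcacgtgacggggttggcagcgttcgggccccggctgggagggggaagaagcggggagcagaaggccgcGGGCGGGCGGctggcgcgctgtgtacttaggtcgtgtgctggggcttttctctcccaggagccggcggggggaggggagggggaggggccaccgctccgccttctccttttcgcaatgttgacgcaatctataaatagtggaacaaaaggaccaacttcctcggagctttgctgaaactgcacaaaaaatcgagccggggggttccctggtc
LOC105379882, chr11:10931264-10931563, plus strand: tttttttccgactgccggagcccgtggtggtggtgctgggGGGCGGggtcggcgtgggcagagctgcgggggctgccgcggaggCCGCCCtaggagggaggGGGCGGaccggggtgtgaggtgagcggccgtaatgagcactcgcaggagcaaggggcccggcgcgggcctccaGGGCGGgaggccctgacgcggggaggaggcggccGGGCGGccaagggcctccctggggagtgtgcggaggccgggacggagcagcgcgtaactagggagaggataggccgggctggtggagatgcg
LINC03108, chr1:234980727-234981026, minus strand: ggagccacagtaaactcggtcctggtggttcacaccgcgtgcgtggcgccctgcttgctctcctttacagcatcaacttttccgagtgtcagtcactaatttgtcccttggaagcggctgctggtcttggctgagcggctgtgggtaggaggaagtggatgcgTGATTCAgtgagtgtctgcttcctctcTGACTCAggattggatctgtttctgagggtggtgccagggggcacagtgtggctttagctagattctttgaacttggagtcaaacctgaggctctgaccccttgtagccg
LINC-PINT, chr7:130913261-130913560, minus strand: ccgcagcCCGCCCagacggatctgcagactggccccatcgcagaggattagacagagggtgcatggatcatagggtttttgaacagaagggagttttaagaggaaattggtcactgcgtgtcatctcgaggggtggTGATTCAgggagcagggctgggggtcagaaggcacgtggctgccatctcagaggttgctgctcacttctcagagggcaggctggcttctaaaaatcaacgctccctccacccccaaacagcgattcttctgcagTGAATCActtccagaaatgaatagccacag
LINC00973, chr3:98966834-98967133, plus strand: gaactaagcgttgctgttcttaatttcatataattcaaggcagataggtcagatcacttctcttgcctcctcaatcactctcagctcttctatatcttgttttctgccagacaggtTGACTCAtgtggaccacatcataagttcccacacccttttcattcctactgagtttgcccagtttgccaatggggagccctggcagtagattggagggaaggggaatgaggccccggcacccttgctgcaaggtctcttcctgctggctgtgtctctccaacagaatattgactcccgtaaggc
MIR4280HG, chr5:87122146-87122445, minus strand: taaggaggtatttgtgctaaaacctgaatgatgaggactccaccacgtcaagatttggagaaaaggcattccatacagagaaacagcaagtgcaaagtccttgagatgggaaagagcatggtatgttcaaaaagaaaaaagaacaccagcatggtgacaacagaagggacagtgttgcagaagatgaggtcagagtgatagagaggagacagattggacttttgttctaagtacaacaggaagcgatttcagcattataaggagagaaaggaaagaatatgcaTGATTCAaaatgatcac

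The first 3 of these windows lay in peaks of 10.97-, 9.83- and 9.77-fold and held 38, 24 and 31 CpG and between 3 and 5 GC boxes, with no AP-1 motif. MIRLET7A1HG is the host gene of let-7 miRNAs, which restrain the messages of growth genes, and DLEU2 is the host gene of miR-15a and miR-16. LOC105379882 is an uncharacterised lncRNA gene. The windows of LINC03108, LINC-PINT, LINC00973 and MIR4280HG lay in peaks of 9.39-, 7.70-, 7.14- and 6.83-fold and held 10, 9, 3 and 2 CpG, and LINC03108 and LINC-PINT each held 2 AP-1 motifs. Other parts of DLEU2, LINC-PINT and LINC00973 come within 50000 bp of a coding gene. The LINC-PINT window lies inside the gene's full span, at one of its annotated starts. LINC-PINT is a lncRNA induced by p53 in other cells.

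Next, 4 mature miRNAs with well-studied targets are shown as well, since their hairpins lay within 1000 bp of a distal peak, with the seed (bases 2 to 8) in capitals. These sequences are RefSeq's as well, on GRCh38.p14.
hsa-miR-148a-3p, chr7:25949922-25949943, minus strand: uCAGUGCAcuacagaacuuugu
hsa-miR-30a-5p, chr6:71403595-71403616, minus strand: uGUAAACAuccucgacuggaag
hsa-miR-29a-3p, chr7:130876748-130876769, minus strand: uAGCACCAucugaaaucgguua
hsa-miR-29b-3p, chr7:130877467-130877489, minus strand: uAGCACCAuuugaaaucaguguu

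Distal peaks were close in median fold and width to other peaks away from gene ends, but fewer of them reached a high fold. Fold enrichment, the authors' ratio of H3K18la signal over the background the caller estimated locally, is an average over the peak. It had a median of 3.83 in distal peaks (quartiles 3.31 and 4.73, range 2.27 to 17.7). It was 3.97 in 4909 peaks between genes within 50000 bp, 3.88 in 9591 peaks inside coding genes and 5.47 in 10374 peaks within 1000 bp of a coding gene end. Width had a median of 1078 bp in distal peaks, against 1139, 1175 and 1379 bp in those 3 classes. A width of at least 5000 bp was found in 97 distal peaks (3.19%), against 2.46% of all autosomal peaks. Of the distal peaks, 12 had a fold of 10 or more (0.394%, 0.204 to 0.688), against 2.96% of all autosomal peaks. The share was 1.32% between genes within 50000 bp (1.02 to 1.68), 1.40% inside genes (1.17 to 1.65) and 5.93% at gene ends. A −log10 q of at least 5 was reached by 1376 (45.2%), against 63.4% of all autosomal peaks. The control background solved from each peak's fold and −log10 p, in the caller's scaled reads, also differed, with a median of 3.19 in distal peaks and 4.50 at gene ends, and its part in these differences was not tested.

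**Figure D1:**
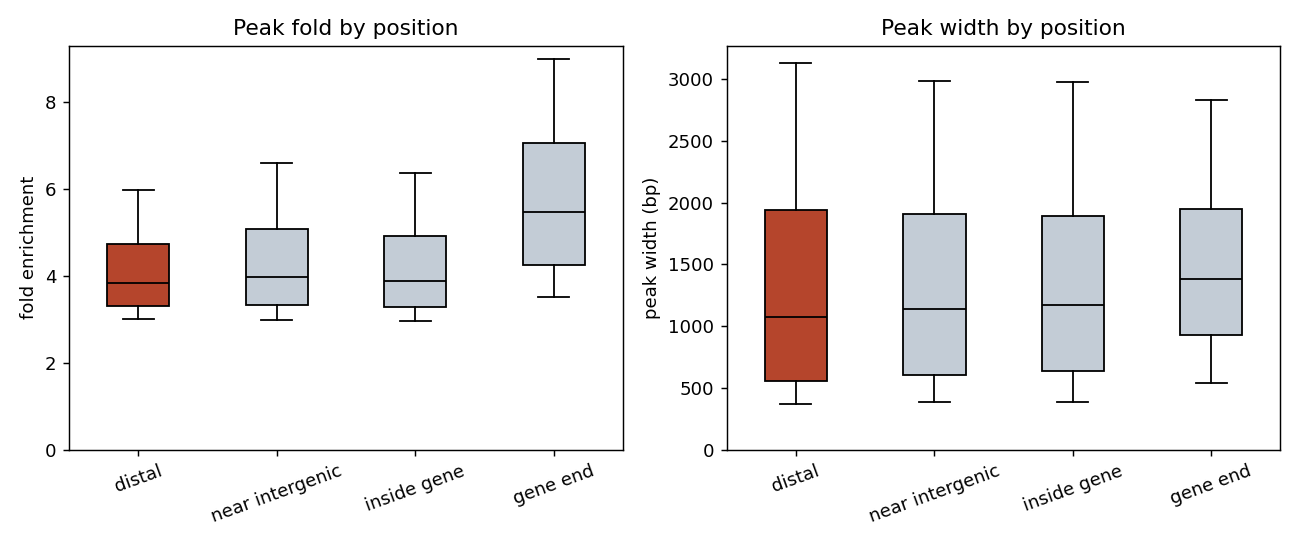
Fold enrichment (left) and width in bp (right) of distal peaks and of 3 other classes of autosomal peaks in 1 library; lines mark medians, boxes quartiles and whiskers the 10th and 90th percentiles. The distal box lies at the height of the near intergenic and inside-gene boxes, and the gene-end box lies above them in fold.

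Peaks thinned out with distance from coding genes while their fold changed little. The median distance from a distal peak to the nearest coding gene was 119.8 kb (quartiles 75.6 and 220.7). Between 50000 and 100000 bp lay 1226 distal peaks (40.3%), up to 250000 bp a further 1182, up to 500000 bp 403, up to 1000000 bp 194, and beyond that 37 (1.22%). Per Mb of sequence between coding genes, peaks whose midpoint lay 50000 to 100000 bp from a gene numbered 6.34, those at 100000 to 250000 bp 4.13, at 250000 to 500000 bp 1.84 and at 500000 to 1000000 bp 1.11. Within 5000 bp of a gene there were 10.6 per Mb. Over the same steps the median fold was 3.89, 3.86, 3.71 and 3.68, and 3.95 within 5000 bp. The solved background went down along the same steps, with medians of 3.30, 3.25, 2.88 and 2.84. Beyond 1000000 bp there were 0.258 peaks per Mb, or 0.653 when gaps longer than 3 Mb, which can hold unsequenced stretches, were left out. Just inside the limit lay a peak 50031 bp from ENC1 with a fold of 4.13, and just outside it a peak 49975 bp from the desmoglein gene DSG1 with a fold of 3.59.

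**Figure D2:**
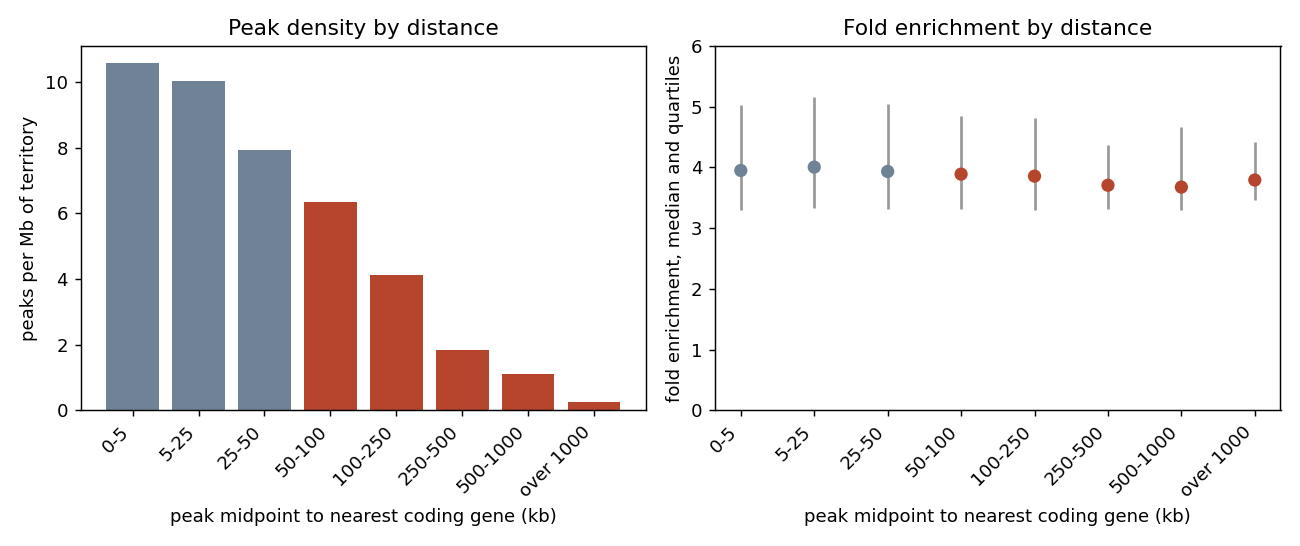
Peaks per Mb of sequence between coding genes (left) and median fold enrichment with quartiles (right), by distance in kb of the peak midpoint from the nearest coding gene; grey marks peaks within 50 kb and red those beyond. Density goes down at each step to 0.258 per Mb, while the median fold stays between 3.68 and 4.01.

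Distal peaks were gathered in a minority of the gaps between neighbouring coding genes. Sequence more than 50000 bp from both neighbours (distal territory) came to 1018.6 Mb in 2677 gaps and held 2.98 peaks per Mb. At least 1 distal peak lay in 1014 gaps (37.9%), and 1663 held none. Gaps with a peak had a median of 0.270 Mb of such sequence and gaps without one 0.0783 Mb. At least 10 distal peaks lay in 46 gaps, with 629 peaks together (20.7% of distal peaks), and 190 gaps (7.10%) held 50% of all. The longest gap with none, 12.1 Mb of territory between LOC124903767 and SHCBP1 on chromosome 16, was followed by one of 6.18 Mb beside ZNF716 on chromosome 7. Between EPHA3, an ephrin receptor gene, and PROS1, the protein S gene, on chromosome 3 there was likewise no peak in 4.29 Mb. Gaps of such length can hold unsequenced stretches, where no peak can be called, and these were not masked.

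By chromosome, the density ran from 5.74 peaks per Mb of distal territory on chromosome 6 and 5.02 on chromosome 12 to 0.876 on chromosome 16 and 0.633 on chromosome 19. Of the 34.3 Mb of such territory on chromosome 16, 12.1 Mb lay in the empty gap named above. Unsequenced stretches count as territory in these densities. Chromosome 6 had 370 distal peaks, 19.3% of its 1919 peaks (17.5 to 21.1), and chromosome 19 had 5 of 1482 (0.337%). Chromosome 13, which is gene-poor, had 18.8% of its peaks in the distal class (15.4 to 22.5), at 2.01 per Mb. Across the 22 chromosomes the density and the median solved background had a Spearman rho of 0.299 and a Pearson r of −0.0858, as a description over chromosomes of 1 library.

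The gap with the most distal peaks was that between MYC and the gasdermin gene GSDMC on chromosome 8 (127742952 to 129705434). MYC encodes a transcription factor that drives growth. The gap held 38 distal peaks with folds of 2.46 to 8.07 and a median of 4.02, and 30 of them overlapped a noncoding RNA gene. The lncRNA gene PVT1 alone had 22 in it or within 1000 bp, among them one of 13889 bp (127799063 to 127812951, 6.05-fold). The widest of all distal peaks, 19793 bp at 5.47-fold (128167010 to 128186802), lay at LOC124902020 in the same gap, 424059 bp from MYC. The median solved background of this gap was 5.08, above the distal median of 3.19, and its part in the count was not tested.

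The next gaps by number held 16 to 27 distal peaks each. Between CITED2, whose product binds the acetyltransferases p300 and CBP, and LOC124901415 on chromosome 6 there were 27 distal peaks with folds up to 6.64. They formed 2 runs on the side of CITED2, followed by scattered peaks, as the map of the gaps shows. Between KRR1, a ribosome assembly gene, and PHLDA1 on chromosome 12 there were 21, and between RFPL4B and MARCKS, which encodes a protein kinase C substrate, on chromosome 6 there were 19. IRF2BP2, a transcriptional corepressor gene, and the mitochondrial import gene TOMM20 on chromosome 1 had 18 between them, as did ACTBL2 and the polo-like kinase gene PLK2 on chromosome 5 and KLF6 and AKR1E2 on chromosome 10. The gap between MSRB3 and HMGA2, which encodes a chromatin protein of fetal and tumour cells, on chromosome 12 had 17 with a highest fold of 9.26. The last of the 10, between ZNF184 and the histone gene H2BC13 on chromosome 6, had 16 peaks at a median solved background of 5.60, and lies in a region of tRNA genes.

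**Figure D3:**
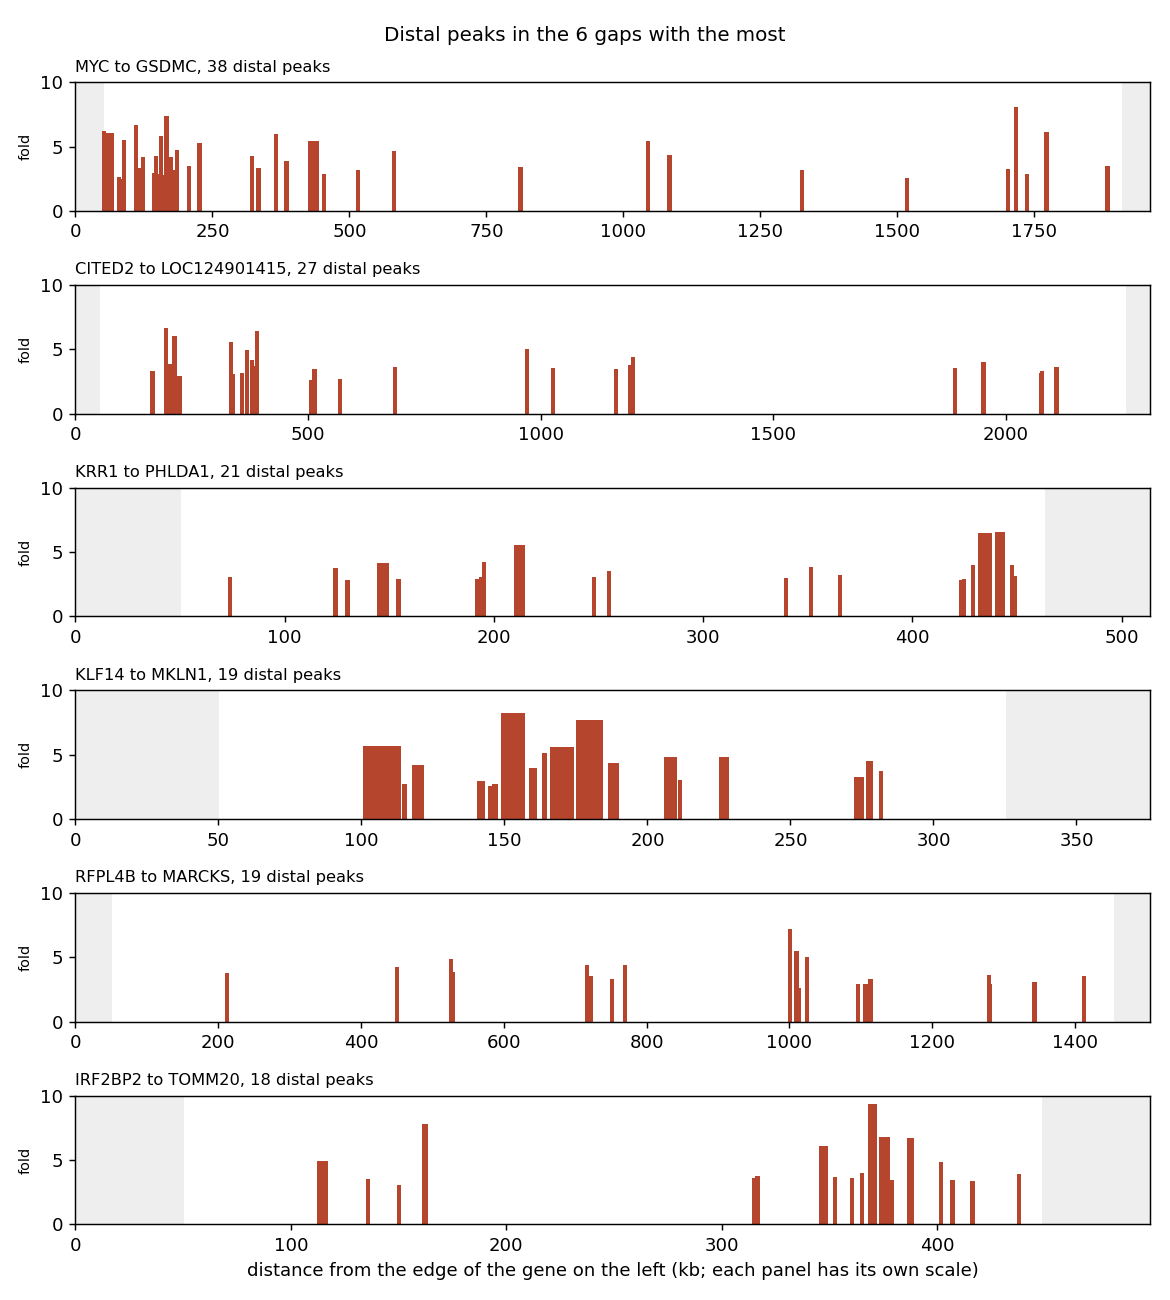
Distal peaks in the 6 gaps between coding genes that held the most; the horizontal axis is the distance in kb from the edge of the gene on the left, bar height is fold enrichment, bar width is peak width (the narrowest peaks are drawn wider so as to be visible) and grey bands mark the 50 kb beside each gene. Beside MYC the peaks crowd into the first 250 kb, while between KLF14 and MKLN1 they fill the middle of the gap.

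Among gaps with at least 0.2 Mb of distal territory and 5 peaks, the densest was that between KLF14, a Krüppel-like factor gene, and MKLN1 on chromosome 7 (130734208 to 131110093), with 19 peaks at 68.9 per Mb. All 19 overlapped a noncoding RNA gene, and LINC-PINT overlapped or neighboured 16 of them, with folds of 2.53 to 8.27. ZNF184 to H2BC13 had 68.3 per Mb and MSRB3 to HMGA2 66.01 per Mb. ZNF217, a gene amplified in breast cancer, and BCAS1 on chromosome 20 had 14 peaks at 56.9 per Mb between them, with a median fold of 4.89 and a highest of 10.4. LOC124907776 and the amino acid transporter gene SLC1A4 on chromosome 2 had 12 at 51.4 per Mb, including the second highest fold of all distal peaks. VEGFA, the main angiogenic factor gene, and MRPL14 on chromosome 6 had 11 at 48.5 per Mb and a highest fold of 9.31, against 2.98 per Mb over all gaps.

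Neighbouring distal peaks were joined into clusters over the gap length commonly used to stitch enhancers. Of 2159 units, 1624 were single peaks, 355 were pairs and 180 were clusters of 3 or more, which held 708 peaks (23.3%, 21.8 to 24.8). Peaks in such clusters had a median width of 1304 bp and a median fold of 3.90, against 1034 bp and 3.81 in single peaks and pairs. Of the clustered peaks 7.63% were at least 5000 bp wide, against 1.84% of the others. The median solved background was 3.45 in clusters and 3.12 outside them, and its part was not tested.

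The largest cluster had 11 peaks over 71556 bp on chromosome 1 (234955446 to 235027001), between IRF2BP2 and TOMM20, with folds of 3.38 to 9.39. It took in LINC03108, whose start is shown above. A cluster of 9 peaks in LINC-PINT and at MIR29A and MIR29B1 on chromosome 7 (130874623 to 130924276) was covered by peaks over 80.8% of its span. There were 3 other clusters of 9 peaks, one in PVT1 at 67.5% covered, one 231815 bp from SOX9 on chromosome 17 that reached LINC00673, and one 150542 bp from HMGA2. SOX9 encodes a factor of cartilage and progenitor cells. A cluster of 8 lay between MAX, the gene of MYC's dimer partner, and FUT8, and another of 8 lay 147401 bp from the haematopoietic factor gene RUNX1 (chromosome 21, 35196703 to 35233623), with folds in the narrow range of 3.83 to 5.49. In MIR100HG, host of the miR-100 and let-7a-2 cluster, 7 peaks on chromosome 11 covered 85.7% of 32854 bp.

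The 20 distal peaks of highest fold lay on 12 chromosomes, with folds of 9.42 to 17.7 and widths of 1076 to 7565 bp (median 3157). The nearest coding gene was 52554 to 501144 bp away, and 10 lay within 100000 bp of one. A noncoding RNA gene end was within 1000 bp in 8 of them. The highest, 17.7-fold over 3049 bp with a −log10 q of 86.05, lay on chromosome 9 (129411979 to 129415027) between IER5L and LOC124900275 and overlapped no annotated RNA gene. The next, 15.8-fold over 1207 bp on chromosome 2 (64864468 to 64865674), lay within 1000 bp of an end of LINC01800. After them came the MIRLET7A1HG promoter at 10.97-fold on chromosome 9 and LINC01990 at 10.6-fold on chromosome 3.

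Some of these 20 peaks, chosen after their neighbours were seen, are given with position. A peak with KLF4, the gene of a factor of epithelial differentiation and pluripotency, as its nearest coding gene lay 259653 bp from it (chromosome 9, 107749422 to 107756986, 10.5-fold, 7565 bp wide). On chromosome 11, a peak of 9.60-fold lay between MYEOV and the cyclin D1 gene CCND1, 121475 bp from MYEOV and 218165 bp from CCND1 (69418762 to 69422991). A peak of 9.66-fold lay 137273 bp from the sonic hedgehog gene SHH on chromosome 7, at an end of LOC124901788. One of 9.42-fold lay between SMAD6 and SMAD3, the genes of an inhibitor and a transducer of BMP and TGF-β signals, on chromosome 15 (66840791 to 66843685), in a cluster of 5.

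The widest distal peaks were another set, and none of the 10 widest was among the 20 highest. After the chromosome 8 peak came one of 15054 bp on chromosome 9 (21674833 to 21689886, 5.08-fold) between the interferon gene IFNE and MTAP, in no RNA gene. MIR100HG had one of 13662 bp at 7.39-fold, and the gap of KLF14 and MKLN1 one of 13530 bp at 5.66-fold. ERRFI1-DT, beside the EGFR inhibitor gene ERRFI1 on chromosome 1, had one of 11429 bp at 6.30-fold. LINC00973 on chromosome 3 overlapped one of 11116 bp, and its 3 distal peaks covered 23004 bp. Near the phosphatase gene DUSP5 on chromosome 10, 80009 bp away, a peak of 10779 bp had 7.06-fold. The solved background of the 10 ran from 3.10 to 9.91.

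The 10 most remote distal peaks had folds of 3.03 to 6.78 and widths of 350 to 1995 bp. Farthest was a peak of 529 bp and 4.59-fold on chromosome 22, 3553963 bp before OR11H1, with no coding gene on its other side. Its solved background was 4.86, above the distal median of 3.19. On chromosome 4, between the protocadherin gene PCDH7 and ARAP2, 4 of the 10 most remote peaks had folds of 3.03 to 5.43. One on chromosome 2, 1708420 bp from SLC39A10 and almost as far from TMEFF2, stood above the rest with 6.78-fold over 1195 bp. The one on chromosome 20 overlapped the pseudogene FRG1CP. How reads that match several copies were placed was not examined for any of these remote peaks, that on chromosome 22 included.

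The name intergenic holds for coding genes only. Of the distal peaks 1165 (38.3%, 36.6 to 40.1) overlapped a noncoding RNA gene, nearly all of them a lncRNA gene (1145), and 421 (13.8%, 12.6 to 15.1) lay within 1000 bp of the start or end of one. Pseudogenes were overlapped by 105 (3.45%). A majority, 1720 (56.5%), lay in no noncoding RNA gene or pseudogene of the annotation, nor within 1000 bp of a noncoding RNA gene end. At noncoding RNA ends the median fold was 4.26, against 3.74 inside such genes away from the ends and 3.77 in unannotated sequence. Widths there had a median of 1289 bp, against 1040 bp inside and 1054 bp in unannotated sequence. A −log10 q of at least 5 was reached by 61.8% at the ends, 41.1% inside and 42.3% in unannotated sequence. The solved background was 3.56 at the ends, 3.20 inside and 3.09 in unannotated sequence. Higher fold was not particular to the ends. For the 79 distal peaks at a pseudogene only, fold was 4.37 at the median and 63.3% reached that q limit. Both values lay above those at the ends, while these peaks were narrower, at 880 bp, with a solved background of 3.51.

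Seen from the genes, 5834 noncoding RNA genes lay over 50000 bp from any coding gene, and 661 of them had a distal peak in the gene or within 1000 bp (11.3%). The share was 11.7% of 5186 lncRNA genes, 4.67% of 257 miRNA genes and 0.457% of 219 snoRNA genes. It was 33.3% of 114 tRNA genes (38 genes, 24.8 to 42.8), with a highest fold of 6.77. On chromosome 6 it was 30 of 66 tRNA genes (45.5%, 33.1 to 58.2), and elsewhere 8 of 48 (16.7%, 7.48 to 30.2). Many tRNA genes have near-identical copies, so the placing of reads among them is uncertain. Genes with a peak were longer, with a median of 24576 bp, against 9478 bp for those without.

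Of a list of lncRNAs studied in cancer and lung, 14 lay over 50000 bp from coding genes and 10 of these had a distal peak, against 11.3% of all noncoding RNA genes so placed. The listed genes were longer, with a median of 46133 bp against 10411 bp for all. This list, like the second one below, was chosen with earlier results of these data known. PVT1 had 22, DLEU1 had 7 with folds up to 9.83, and LINC00673 had 5 up to 6.67. LUCAT1 had 1 of 5127 bp at 5.66-fold on chromosome 5. LINC00472 on chromosome 6 had 2, of 4.26-fold and 7.65-fold. CCAT1, CASC19, LINC01559 and LINC01605 had none. Distal peaks also touched 8 listed lncRNAs with a part nearer to a coding gene, among them MIR31HG with 2 of up to 6.48-fold and SOX2-OT with 2 of up to 3.47-fold. MIR4435-2HG had 2 of at most 495 bp, the higher of 8.52-fold, and CYTOR 2 of at most 546 bp, the higher of 5.11-fold. These genes are close copies of each other, so the placing of reads between them is uncertain.

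Of 8 miRNA genes and host genes in a second list that were far from coding genes, 4 had a peak (interval 15.7 to 84.3%). The share over all noncoding RNA genes so placed was 11.3%. The 4 were MIRLET7A1HG, MIR181A1HG with 4 peaks, MIR99AHG with 3 and MIR29A. MIR124-1HG, MIR124-2HG, MIR146A and MIR205HG had none. Of all 257 miRNA genes over 50000 bp from any coding gene, 12 lay within 1000 bp of a distal peak (4.67%). The hairpin of MIR148A was 747 bp from a peak of 6.43-fold on chromosome 7, while MIR30A lay inside the peak of 10490 bp and 4.26-fold that also covers part of LINC00472. MIR29A and MIR29B1, whose mature 3p forms share the seed AGCACCA, lay at 1 peak of 2.95-fold with a −log10 q of 3.26. MIR4425 lay at a peak of 7.33-fold between RUNX3 and SYF2.

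The lncRNA starts inside distal peaks were richer in CpG than other distal lncRNA starts. There were 3953 distal windows of 3468 lncRNA genes, of which 3204 lay over 50000 bp from coding genes in their whole length. Of these windows, 184 lay in a distal peak, with a median of 8 CpG and 53.2% G or C, against 3 CpG and 43.3% in the 3769 others. Windows in distal peaks had fewer CpG than the windows of coding genes in peaks, whose median was 28. At least 20 CpG were held by 29.9% of windows in distal peaks and 3.74% of the others. Of windows with at least 20 CpG, 28.1% lay in a distal peak (21.9 to 34.9), and of poorer windows 3.43% (2.87 to 4.07). The peaks at CpG-rich windows had a median fold of 5.13 and those at poorer ones 4.41. The limit of 20 CpG was chosen after the counts were seen.

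**Figure D4:**
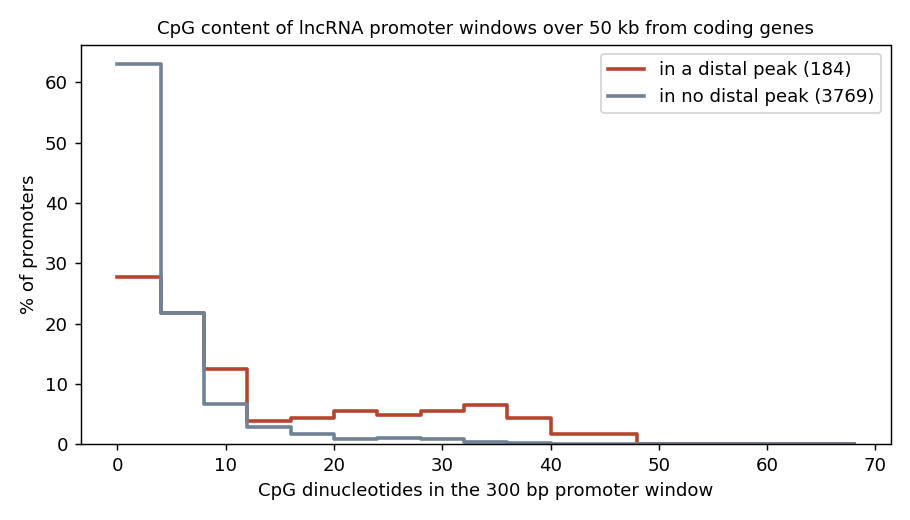
CpG dinucleotides in the 300 bp promoter windows of lncRNAs, each window over 50 kb from coding genes, as a percentage of the 184 windows in a distal peak (red) and of the 3769 in no distal peak (grey). At least 20 CpG were held by 29.9% of the windows in a distal peak and by 3.74% of the others.

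Motif content split by CpG class. Among the 55 CpG-rich windows in distal peaks, 81.8% held the GC box GGGCGG and 1.82% the AP-1 motif TGANTCA, on either strand. In the 141 CpG-rich distal windows in no distal peak, the GC box share was 67.4% and the AP-1 share 1.42%. The 95% intervals of these GC box shares overlapped, so a difference by peak was not shown for CpG-rich windows. Among the 129 poorer ones, which lay in 121 peaks, 32.6% held the AP-1 motif (42 windows, 24.6 to 41.4) and 16.3% the GC box. In poorer distal windows in no distal peak the AP-1 share was 13.1% of 3628 (12.1 to 14.3) and the GC box share 6.39%. Over all 33725 autosomal windows, coding genes included, the AP-1 share was 7.67% and the GC box share 45.04%. The other motifs searched were compared in the same poorer windows. GGAATG (TEAD) was held by 20.2% in distal peaks and 17.8% outside, GGAAGT (ETS) by 28.7% and 19.8%, TGTTTAC (forkhead) by 7.75% and 5.71%, and CCCTC (CTCF core) by 58.9% and 49.01%. CACGTG (E-box) was held by 4.65% and 3.53%, and TGACGTCA (CRE) by 2.33% (3 windows) and 0.386% (14 windows). A CRE match is not itself an AP-1 match, windows can share a peak or overlap each other, and a match of letters is not a bound site.

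Listed coding genes that border distal territory were compared with all that do. These lists too were chosen with earlier results of these data known. Over all 4390 coding genes that border such territory, 42.1% had at least 1 distal peak in the gap. Of 76 listed developmental transcription factor genes 46 did (60.5%, 48.6 to 71.6), as did 7 of 10 AP-1 and immediate early genes, 8 of 12 genes of TGF-β, BMP and Hippo signalling, 14 of 23 growth factor, receptor and cytokine genes, 11 of 18 adhesion and matrix genes and 15 of 25 neuronal adhesion and synapse genes. The 95% intervals of these 5 smaller lists all took in 42.1%, with lower bounds of 34.8 to 38.7%. The lists differed in the length of territory, with medians of 0.644 Mb for the developmental factors and 2.34 Mb for the neuronal genes, against 0.152 Mb for all genes. Densities per Mb differed more between the lists. Peak density went down with distance from coding genes, as given above, and the part of territory length in the densities of the lists was not tested. A gap between members of the same list was counted for each of them, as with SMAD6 and SMAD3. Beside AP-1 and immediate early genes there were 11.3 distal peaks per Mb, beside TGF-β, BMP and Hippo genes 9.71, beside growth factor genes 8.17, beside developmental factors 3.54, beside adhesion genes 2.32 and beside neuronal genes 1.01, against 2.98 for all. MYC, a member of the first of these lists, supplied 38 of its 66 peaks, and without it the density was 7.44 per Mb. With their own members of most peaks left out, TGF-β, BMP and Hippo genes had 7.75 and growth factor genes 7.41 per Mb. These alternatives were chosen after seeing the data.

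**Figure D5:**
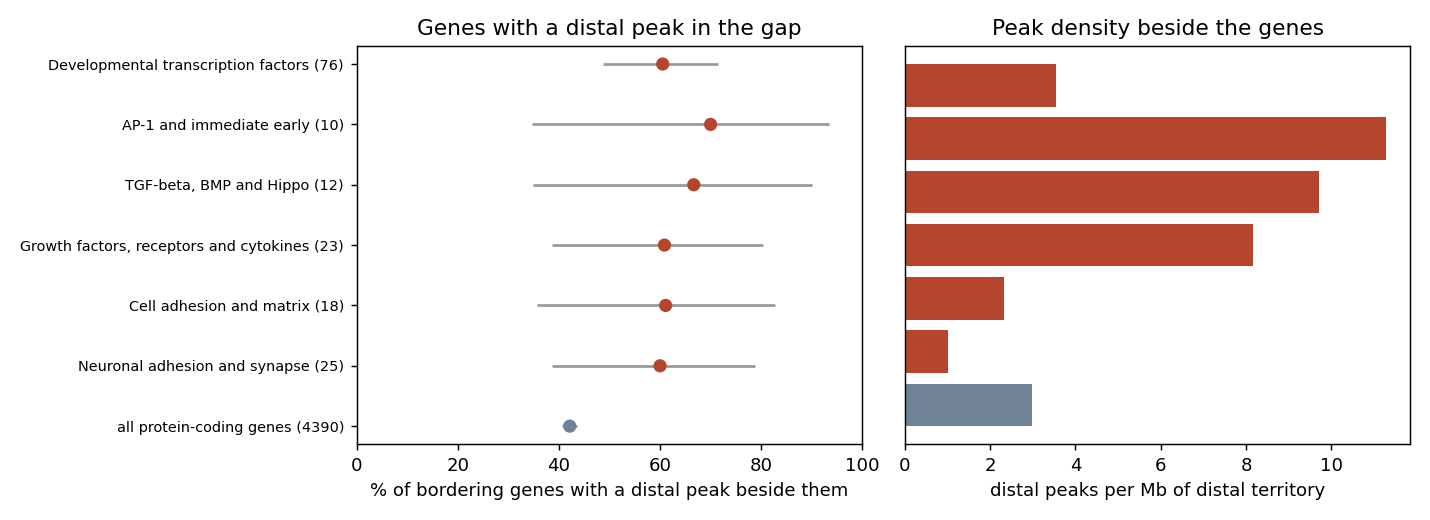
Share in percent of listed coding genes bordering distal territory that had a distal peak beside them, with exact 95% binomial intervals (left), and distal peaks per Mb of that territory (right); the number of bordering genes stands in brackets and grey marks all coding genes. The 6 lists lie at 60.0 to 70.0% and all genes at 42.1%, a value inside the intervals of all lists but the developmental factors; the density beside neuronal genes is below that of all genes. Territory length differs between the lists and was not matched.

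Among the developmental factors, SOX9 and KLF6 had 21 distal peaks each in the gaps beside them, NR2F1 and NR2F2, genes of related orphan nuclear receptors, 15 each, RUNX1 14, KLF4 13 and the mesenchymal repressor gene ZEB2 12. For RUNX1, NR2F1 and NR2F2 all 14, 15 and 15 of these peaks had the factor as their nearest coding gene. This held for 12 of the 21 beside SOX9, 7 of the 21 beside KLF6, 7 of the 13 beside KLF4 and 9 of the 12 beside ZEB2. TFAP2A had 9. SOX4, FOXQ1, TBX3 and NKX2-1, the lung lineage factor gene, had none. TBX3 borders 1.34 Mb of such territory, and NKX2-1 only 0.0958 Mb.

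JUN, which encodes a core AP-1 protein, had 14 distal peaks beside it with folds up to 6.20, all in the gap towards FGGY. JUN was the nearest coding gene of 7 of them. ATF3 had 1 of 6.25-fold, DUSP5 had 4 of up to 8.23-fold, and FOS and EGR2 had none. In TGF-β signalling, TGFB2 had 10, all nearer to it than to LYPLAL1, from 51001 bp away and with folds up to 7.53, and SMAD6 had 11, of which 10 lay in the gap it shares with SMAD3. CCN2, a target of YAP and TEAD factors, had 3 of up to 6.40-fold. IRS1, an adaptor of the insulin receptor, had 13 distal peaks, VEGFA 11 and NRG1 8, whereas FGFR2 and FGF10 had none. The named gene was the nearest coding gene for 9 of the 13 beside IRS1, 3 of the 11 beside VEGFA and 3 of the 8 beside NRG1.

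Among adhesion and matrix genes, TNC had 10 distal peaks of up to 7.03-fold and ITGA6 8 of up to 7.85-fold. Of the listed cadherin genes, CDH2 had 7 of up to 8.56-fold, the highest fold in this list, and CDH11 had 1. CDH4, CDH10, CDH12 and CDH13 had none. CD44 had 2, the higher of 8.13-fold, in 0.0430 Mb of territory. The neuronal list was led by NTM with 8 and by PCDH7 and LRP1B with 7 each, in 4.76 Mb beside PCDH7 and 2.00 Mb beside LRP1B. SLITRK6, LSAMP and CSMD1 had none in 3.53, 2.36 and 2.00 Mb. The genes on either side of a gap share its peaks, so that the counts of neighbours such as SMAD6 and SMAD3 are not independent, and which gene a peak acts on was not measured.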

How the data were processed

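Chromatin of H1299 cells was immunoprecipitated with anti-H3K18la and sequenced, beside 1 input library. Per the submitters' processing notes, bcl2fastq 2.17, cutadapt 1.18, Trimmomatic 0.38, Bowtie2 2.3.4.1, Picard, MACS2 (2.1.2 and 2.1.0 are both listed) and ChIPseeker were used with build hg38. Settings and the control of the peak calls are not given in the sources used here, and the series text speaks of IgG where the labels speak of input. The deposited list, in MACS2 broad peak format, gives each peak's fold enrichment (a ratio over local background), −log10 p, −log10 q and a score. The deposited score repeats −log10 q on a scale of 10 and was not used further. The largest q was 0.0472. Averaging over a peak lowers the fold of wide peaks with strong centres.

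Peaks were compared with RefSeq genes of GRCh38.p14 without strand, after 718 entries on alternate or unlocalised sequences were left out (19866 coding genes remained), with an overlap of 1 bp or more. Exons and introns could not be assigned. Unsequenced stretches were not masked. The control background was solved from fold and −log10 p under a Poisson model with a pseudocount of 1, in the caller's scaled units. Intervals of shares are exact (Clopper-Pearson, 95%). For densities per Mb the 95% intervals are Poisson and treat peaks as independent, and for medians they are taken from the ranked values. Python 3.11.15 with scipy 1.17.1 was used, and the procedures were tested on simulated data.

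Named peaks and genes were the 20 highest in fold, the 10 widest, the 10 farthest, the 10 clusters and 10 gaps with the most peaks, the 10 densest gaps, the 15 noncoding genes of highest fold at an end, and up to 4 listed members with and 4 without peaks, with their neighbours. Genes named beyond these, and the printed sequences, were chosen after values were seen. The class of peaks and all lists were chosen with earlier results of these data known. Alternatives covered the distance, a stricter q, the overlap rule, the stitching distance and peaks of raised background.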

Additional observations from a re-analysis of the deposited data

Results flagged for a closer look

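Chromosome X was outside the comparisons, which were limited to chromosomes 1 to 22. Under the same distance rule it held 103 distal peaks of 779 (13.2%). Their median fold was 4.19 and the highest 9.17.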

How the results depend on the processing

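Of 27 alternatives over 14 results, 13 left the value within the main value's 95% interval and 14 moved it. The share of autosomal peaks that were distal was 10.9%, but 15.8% with a minimum distance of 25000 bp, 6.51% with 100000 bp and 7.78% among peaks with a −log10 q of at least 5. That q limit gave distal peaks a median fold of 4.88, a median width of 1867 bp and a share of 11.6% in clusters of 3 or more. With a stitching distance of 5000 bp the clustered share was 11.9%. The share overlapping a noncoding RNA gene was 35.4% by the peak's midpoint, 35.3% with 50% of the peak covered and 20.4% without provisional LOC genes, and the share at noncoding ends was 20.4% with a window of 3000 bp. Density was 2.86 per Mb without the 129 peaks whose solved background was over 6.38, and 3.55 per Mb without gaps longer than 3 Mb, an alternative chosen after seeing the data. Leaving out each list's member with the most peaks, also chosen after seeing the data, moved only the AP-1 and immediate early list past its interval, to 7.44 per Mb against 11.3. The order of the 3 densest lists turned, with 7.75 per Mb for TGF-β, BMP and Hippo genes and 7.41 for growth factor genes. In the TGF-β, BMP and Hippo list SMAD6 was left out, but SMAD3 stayed, with the 10 peaks of the gap they share. The 7.75 per Mb therefore still counts that gap, and no value without it is given. Each rule changes the sets that are counted, and the cause of the shifts under these alternatives was not tested. No paired analysis was possible because each group has 1 library. With 1 library of unknown depth, weak distal peaks near the caller's threshold cannot be checked, and stretches without a peak are not shown to lack the mark.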
